A study of Mus musculus with 6 samples.

Results

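The Dlx, Msx and Alx genes are 3 families of homeobox genes, and the 9 described here are Dlx1, Dlx2, Dlx3, Dlx5, Dlx6, Msx1, Msx2, Alx1 and Alx4. They were chosen as the genes with a probe whose RefSeq accession names 1 of these symbols, which gave 9 genes with 1 probe each among 20660 genes with a RefSeq symbol on the array. Dlx proteins are relatives of the fly Distal-less factor and pattern the jaw, the limb and the ventral forebrain. Msx1 and Msx2 are homeobox repressors of the pharyngeal arches, skull, teeth and limb buds that respond to bone morphogenetic proteins (BMPs), and Alx proteins, relatives of the fly Aristaless factor, act in the frontonasal, skull and limb mesenchyme. In adult connective tissue, homeobox genes are known for patterns of expression that follow the body site a fibroblast came from.

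The series compared cultured heart fibroblasts with cultured tail fibroblasts of the mouse, and its title asks about heart-forming genes in cardiac fibroblasts. Each group had 3 cultures, each pooled from 2 animals and plated for 5 days, and each culture was measured on 1 single-colour (Cy3) Agilent array. All animals were male C57/Bl6-J, 8 weeks old in the labels and 8 to 10 weeks in the protocol, with no genetic change and no drug named. Heart cultures came from the chopped organ and tail cultures from the skinned tail, both freed with trypsin or collagenase. The labels do not say which culture received which enzyme, nor whether an animal gave both a heart and a tail culture. No sort for fibroblasts is named, and all 8 general fibroblast markers on the list used (among them Col1a1, Vim and Pdgfra) were well above background on all 6 arrays.

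A level is given as log2 of the background-subtracted signal minus the array's 75th percentile, so that 0 is the 75th percentile of that array, and levels of different probes are not comparable. The scanner software called 47.3% to 55.2% of spots well above background on 5 of the arrays. The array labelled heart 2 stood apart, with that call made for 99.3% of its spots, a median signal of 949 against 24.3 to 37.8 elsewhere, and 2748 non-uniform spots against 0 to 7. Its log2 signals correlated at 0.724 to 0.745 with those of the other arrays. The array labelled tail 1 ran against its label, since its correlation over all probes was 0.988 with heart 1 and 0.979 with heart 3, but 0.969 with tail 2 and 0.957 with tail 3. Each result is therefore given on all 6 arrays by label and on 4 arrays, heart 1 and 3 against tail 2 and 3. Leaving out tail 1 rests on its signals, so p-values on 4 arrays are too small by an unknown amount.

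On 4 arrays, Dlx2, Dlx5 and Msx2 were lower in heart cultures, while Dlx3, Msx1 and Alx4 were detected in both tissues and did not pass the test. Dlx1, Dlx6 and Alx1 were not well above background on any of these 4 arrays. By label none of the 9 genes passed, and for none of them were the labelled groups apart, whereas 7.92% of all features tested by label had groups that did not overlap with heart lower. Among RefSeq promoter sequences, 4 of the 9 genes had an entry. The 250 bases before the start are shown for Dlx2 and Msx2, both lower in heart, and for Msx1, the close relative of Msx2 that did not pass. Capitals mark every match, on either strand, to the motifs searched, which were TAATTA and TAATTG (the core sites of many homeobox proteins), the CCAAT box, the GC box GGGCGG and the palindrome GGCGCC. The build is GRCm38.p6, and all 3 genes lie on the minus strand, so each sequence reads 5′ to 3′ along the gene. Dlx2 is shown for chr2:71546755-71547004, Msx2 for chr13:53472781-53473030 and Msx1 for chr5:37824586-37824835.
Dlx2: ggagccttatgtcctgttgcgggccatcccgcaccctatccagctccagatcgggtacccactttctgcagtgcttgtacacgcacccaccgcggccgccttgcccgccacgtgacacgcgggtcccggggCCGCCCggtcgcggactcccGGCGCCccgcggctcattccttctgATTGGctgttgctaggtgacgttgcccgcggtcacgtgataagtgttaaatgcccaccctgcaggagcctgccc
Msx2: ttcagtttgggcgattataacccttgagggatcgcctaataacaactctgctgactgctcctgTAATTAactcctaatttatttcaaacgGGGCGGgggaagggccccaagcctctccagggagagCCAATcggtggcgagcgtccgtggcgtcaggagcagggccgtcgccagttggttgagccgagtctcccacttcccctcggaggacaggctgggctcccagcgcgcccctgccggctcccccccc
Msx1: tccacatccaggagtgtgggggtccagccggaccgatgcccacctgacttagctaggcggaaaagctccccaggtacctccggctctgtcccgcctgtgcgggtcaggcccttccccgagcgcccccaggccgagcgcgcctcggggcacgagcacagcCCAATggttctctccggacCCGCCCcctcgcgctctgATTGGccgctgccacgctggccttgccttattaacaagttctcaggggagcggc
TAATTA was found in the Msx2 window, starting at position -187 from the start, and is present in 4.84% of 32851 promoter windows of this length. Neither TAATTA nor TAATTG, which 7.17% of windows hold, was found in the Dlx2 and Msx1 windows. CCAAT, present in 33.8% of windows, and GGGCGG, present in 32.7%, each had a match in all 3. GGCGCC, present in 9.59%, was found in the Dlx2 window at position -99, and no matches overlapped. The windows held 24 CG pairs for Dlx2, 16 for Msx2 and 20 for Msx1, against a median of 6 over all promoters. These matches describe the letters in the windows and no binding was measured.

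Of the 9 genes, 5 passed the filter by label (Dlx2, Dlx3, Msx1, Msx2 and Alx4) and 6 passed it on 4 arrays (the same 5 and Dlx5). The filter keeps a feature when 1 group or both have it well above background on every array, and Dlx5 and Dlx2 passed it on 4 arrays only through tail. With limma and 3 arrays per group, 0 of 20202 features were called at an adjusted p under 0.05 (0.0%). At an unadjusted p under 0.05 there were 465 (2.3%), none of them among the 5 genes tested, whose smallest unadjusted p was 0.136. On 4 arrays limma called 2943 of 20575 features (14.3%), 1596 higher in heart (7.76%) and 1347 lower (6.55%). Of the 6 genes tested there, 0 were called higher and 3 lower. The median difference of the 6 was -0.90, beside -0.06 over all features tested. Since Dlx2 and Dlx5 entered this test through tail, where they were high, the count and the median are descriptions only. In these bulk cultures, fewer cells of a type and less RNA per cell cannot be told apart. Among markers of other cell types, the cartilage matrix gene Comp moved with Dlx2, Dlx5 and Msx2. Its linear signal was 2.19 and 5.05 times the array's 75th percentile in heart cultures 1 and 3, against 88.4 and 102 times in tail cultures 2 and 3. The summed signal of the other chondrocyte markers ran the other way. It was 8.95 and 8.12 times in heart cultures 1 and 3, against 3.76 and 3.22 times in tail cultures 2 and 3. In those heart cultures the sum was mostly Sox9, which was called higher in heart (log2 difference 3.63). In those tail cultures it was mostly Col2a1, which moved with Comp and was called lower in heart (-3.13). Acan (-0.31) and Col9a1 (0.59) did not pass the test. The part of Comp or of the other markers in the results for Dlx2, Dlx5 and Msx2 was not tested.

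**Figure D1:**
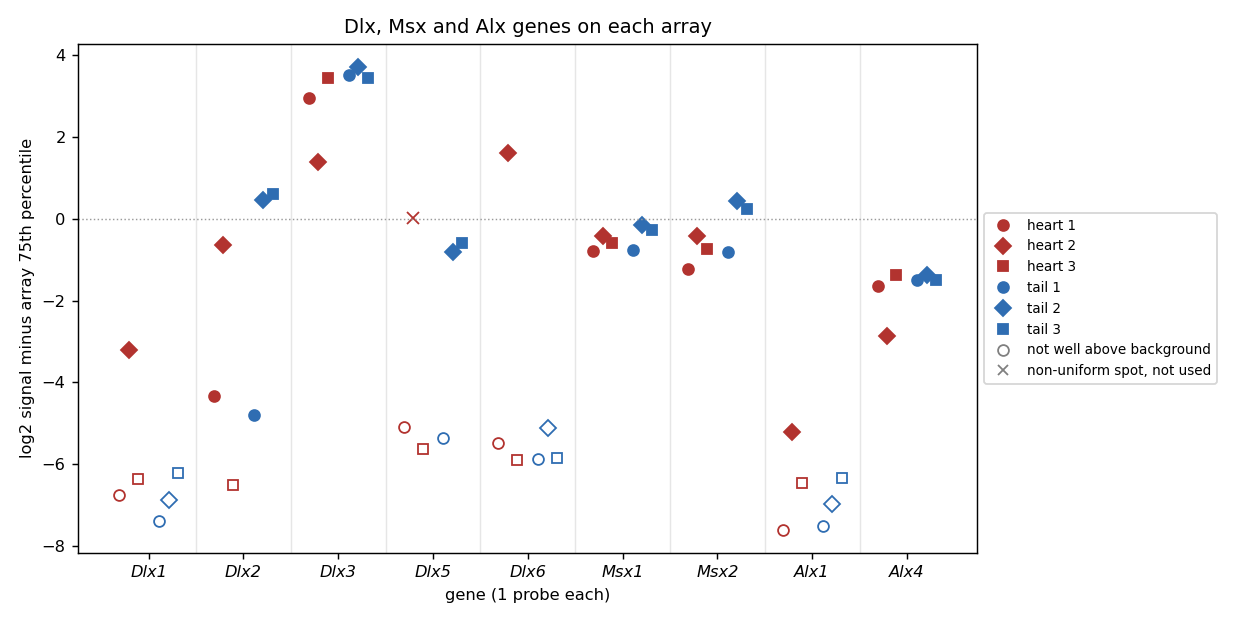
Level of each of the 9 genes on each array, as log2 signal minus the array's 75th percentile, with heart arrays in red left of tail arrays in blue and the symbol giving the replicate. Open symbols were not well above background and the cross is a non-uniform spot that was not used. Apart from the cross, Dlx2, Dlx5 and Msx2 show tail 2 and 3 at the top, with tail 1 beside heart 1 and 3. Dlx1, Dlx6 and Alx1 are filled on heart 2 alone.

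Dlx2 acts with Dlx1 in forebrain interneurons and in the upper part of the first pharyngeal arch. Its level was -4.33, -0.63 and -6.50 in heart cultures 1, 2 and 3, against -4.80, 0.47 and 0.61 in tail cultures 1, 2 and 3. Tail 2 and 3 were high, heart 2 lay just below them, and heart 1, heart 3 and tail 1 were low, so the labelled groups overlapped. By label Dlx2 averaged -3.82 ± 2.97 in heart and -1.24 ± 3.08 in tail (SD, n = 3 each), a log2 difference of -2.58 (SE 1.80, 95% interval -6.73 to 1.58, limma adjusted p = 0.725). On 4 arrays it averaged -5.41 ± 1.54 in heart and 0.54 ± 0.10 in tail (SD, n = 2 each), and the groups did not overlap. The difference was -5.95 (SE 0.74, 95% interval -7.91 to -3.996, limma adjusted p = 0.0110). Of the 2 heart arrays only heart 1 had a signal well above background, and with heart 3 raised to the lowest level called well above background on that array, Dlx2 was 27.6-fold lower in heart. With normexp background correction the difference on 4 arrays was -3.50 (limma adjusted p = 0.000445).

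Dlx5 acts in the lower jaw, the limb ridge and developing bone, where it promotes osteoblast genes. It had -5.08 and -5.62 on heart 1 and 3, against -5.35, -0.81 and -0.59 in tail cultures 1, 2 and 3. The heart 2 spot, at 0.01, was marked non-uniform and left out, so the labelled groups held 2 heart and 3 tail values. Only tail 2 and 3 were well above background, and tail 1 lay between heart 1 and heart 3. By label Dlx5 did not pass the filter and has no test, with a mean difference of -3.10. On 4 arrays it averaged -5.35 ± 0.39 in heart and -0.70 ± 0.16 in tail (SD, n = 2 each), and the difference was -4.65 (SE 0.24, 95% interval -5.29 to -4.01, limma adjusted p = 0.00141). Since neither heart array was well above background, the fold is a bound, and Dlx5 was at least 15.2-fold lower in heart. A bound sets the mean of the brighter arrays against the dimmer arrays' own signal or the lowest signal called well above background there, whichever is higher. It holds for this processed signal only, and with normexp the change was smaller than the bound for every gene given one in this report. With normexp the difference was -2.12 (limma adjusted p = 0.000798). Dlx5 was the one gene of the 9 in the authors' deposited table of 433 probes, which gives it a log2 fold of -4.30 for heart over tail, an absolute fold of 19.7.

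Dlx3, a regulator of hair follicle, tooth and placenta that is also active in bone, was well above background on every array. Its level was 2.96, 1.38 and 3.45 in heart cultures 1, 2 and 3, against 3.51, 3.70 and 3.43 in tail cultures 1, 2 and 3. Heart 2 was lowest, and the other 5 arrays lay within 1 unit of one another with the groups overlapping. By label the mean was 2.60 ± 1.08 in heart and 3.55 ± 0.14 in tail (SD, n = 3 each), a difference of -0.95 (SE 0.57, 95% interval -2.28 to 0.37, limma adjusted p = 0.725). On 4 arrays the difference was -0.36 (SE 0.23, 95% interval -0.98 to 0.26, limma adjusted p = 0.370).

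Dlx1, which acts with Dlx2 in interneurons and the upper jaw, and Dlx6, which acts with Dlx5 in the lower jaw and limb, were each well above background on heart 2 alone. Dlx1 had -6.76, -3.21 and -6.36 in heart cultures 1, 2 and 3, against -7.37, -6.87 and -6.22 in tail cultures 1, 2 and 3. Dlx6 had -5.48, 1.61 and -5.89 in heart cultures 1, 2 and 3, against -5.86, -5.11 and -5.84 in tail cultures 1, 2 and 3. Neither passed the filter. Their mean differences by label, 1.38 for Dlx1 and 2.35 for Dlx6, carry no test and rest on heart 2, since on 4 arrays they were -0.02 and -0.21.

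The Dlx genes lie in neighbouring pairs that are known to be transcribed towards each other and to share enhancers. In the RefSeq gene order Dlx1 and Dlx2 are next to each other on chromosome 2, Dlx6 and Dlx5 on chromosome 6, and Dlx3 and Dlx4 on chromosome 11. On tail 2 and 3, Dlx2 and Dlx5 were well above background while their partners Dlx1 and Dlx6 were not. The antisense RNAs Dlx1as and Dlx6os1 had a probe each. Dlx1as was well above background on heart 2 alone, with -7.44, -3.59 and -6.31 in heart cultures 1, 2 and 3, against -7.33, -6.81 and -6.17 in tail cultures 1, 2 and 3. Dlx6os1, known as Evf2 and able to bring Dlx proteins to the enhancers of the Dlx5 and Dlx6 pair, had -4.32, -0.22 and -6.06 in heart cultures 1, 2 and 3, against -5.04, -5.28 and -5.80 in tail cultures 1, 2 and 3. It was well above background on heart 1 and 2 and passed the filter in neither comparison.

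**Figure D2:**
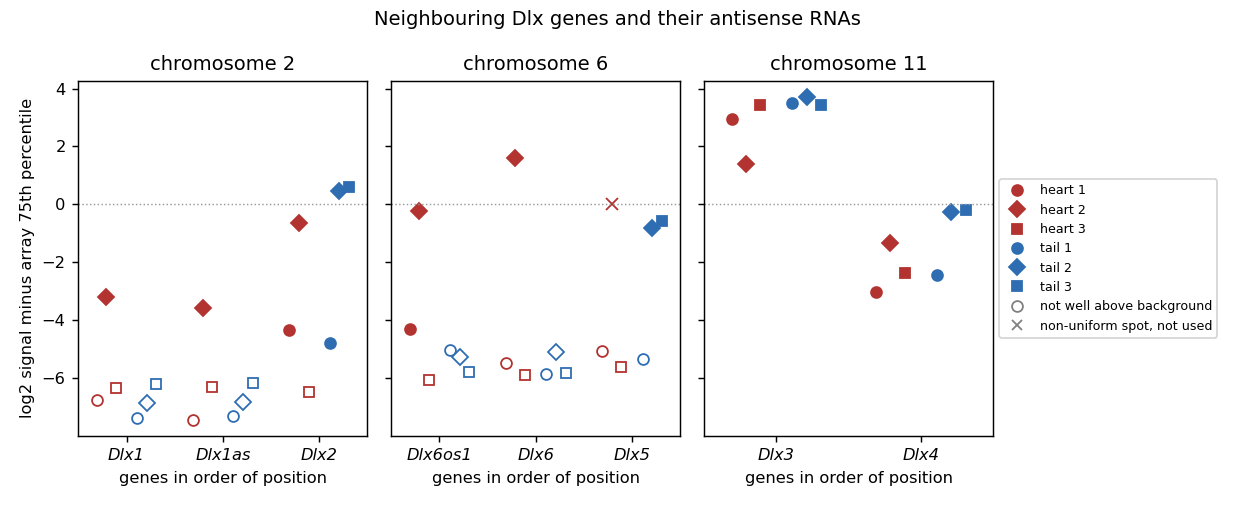
Level of neighbouring Dlx genes and antisense RNAs on each array, in order along chromosomes 2, 6 and 11, as log2 signal minus the array's 75th percentile, with symbols as in the plot of the 9 genes. Within the first pairs only Dlx2 and Dlx5 are filled on tail 2 and 3, and both Dlx3 and Dlx4 are filled on all arrays.

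Msx2, which acts in skull sutures, teeth, limb and hair follicles and is a BMP target, was well above background on all arrays. It had -1.23, -0.42 and -0.74 in heart cultures 1, 2 and 3, against -0.80, 0.43 and 0.24 in tail cultures 1, 2 and 3. Tail 2 and 3 were the highest, tail 1 lay among the heart arrays and the labelled groups overlapped. By label Msx2 averaged -0.80 ± 0.41 in heart and -0.05 ± 0.66 in tail (SD, n = 3 each), a difference of -0.75 (SE 0.48, 95% interval -1.86 to 0.36, limma adjusted p = 0.725). On 4 arrays it averaged -0.99 ± 0.34 in heart and 0.33 ± 0.13 in tail (SD, n = 2 each), a difference of -1.32 (SE 0.22, 95% interval -1.91 to -0.73, limma adjusted p = 0.0260), or 2.495-fold lower in heart. The call was lost without tail 2 or without tail 3. The difference then changed little, to -1.22 and -1.41, while the SE rose to 0.37 in each. Msx2 was also not called without the filter (limma adjusted p = 0.168) or against a minimum change of 2-fold.

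Msx1, which acts in palate and tooth development, was well above background on every array. It had -0.79, -0.43 and -0.60 in heart cultures 1, 2 and 3, against -0.77, -0.15 and -0.29 in tail cultures 1, 2 and 3. Tail 2 and 3 were again the highest, but the whole range was under 1 unit and the labelled groups overlapped. The difference by label was -0.21 (SE 0.39, 95% interval -1.10 to 0.69, limma adjusted p = 0.800). On 4 arrays the groups did not overlap, and the difference was -0.48 (SE 0.16, 95% interval -0.90 to -0.05, unadjusted p = 0.0358, limma adjusted p = 0.143). Of all features tested on 4 arrays, 28.5% had an unadjusted p under 0.05, and 36.4% had groups that did not overlap with heart lower.

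Alx4, which keeps the posterior signalling zone of the limb from forming at its anterior edge and acts in the skull, was well above background on all arrays. Its level was -1.64, -2.87 and -1.38 in heart cultures 1, 2 and 3, against -1.51, -1.37 and -1.50 in tail cultures 1, 2 and 3. Heart 2 was low and the other 5 arrays lay close together with overlapping groups. By label the difference was -0.50 (SE 0.49, 95% interval -1.63 to 0.62, limma adjusted p = 0.725), and on 4 arrays it was -0.07 (SE 0.17, 95% interval -0.53 to 0.38, limma adjusted p = 0.817). The 4-array interval leaves out a change of 1 unit, or 2-fold, in either direction, but tail 1 was left out for its signals, so it may be too narrow. The interval by label includes a 2-fold fall in heart. Alx1, which acts in the frontonasal mesenchyme, had -7.59, -5.20 and -6.47 in heart cultures 1, 2 and 3, against -7.49, -6.97 and -6.33 in tail cultures 1, 2 and 3. It was well above background on heart 2 alone, passed no filter and has no test.

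**Figure D3:**
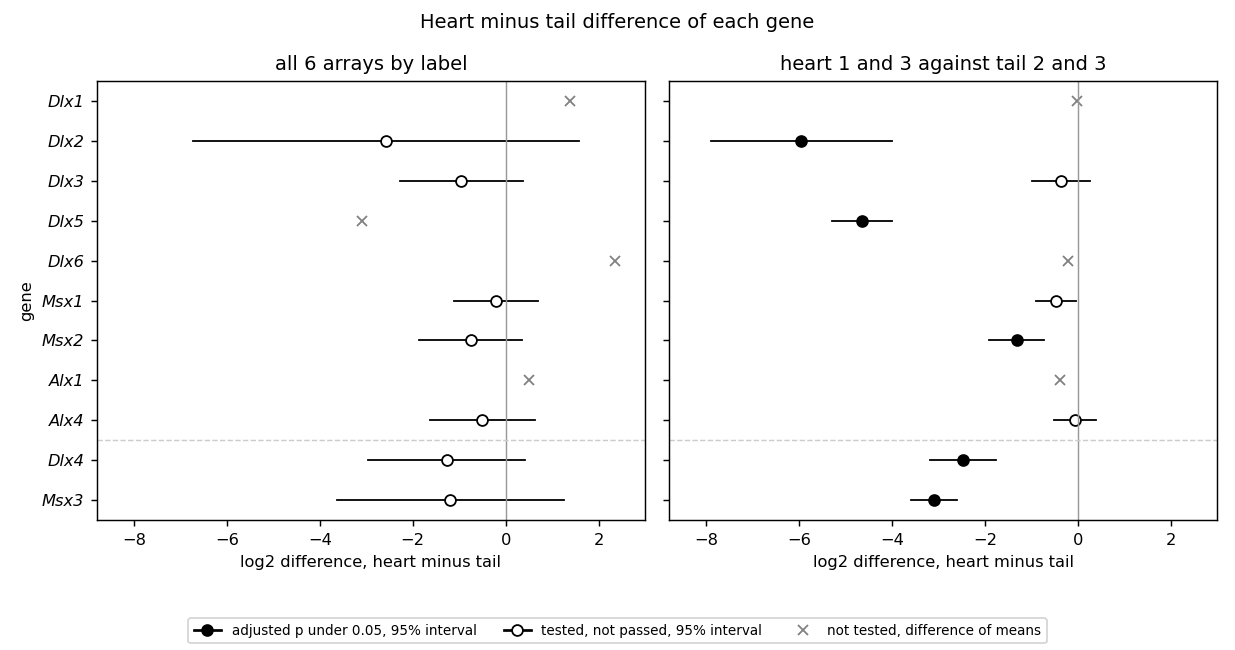
Log2 difference of heart minus tail for the 9 genes and, below the dashed line, Dlx4 and Msx3 of the same families, by label on the left and on 4 arrays on the right, with 95% intervals for tested genes. Filled circles passed an adjusted p of 0.05. By label every interval crosses 0. On 4 arrays the intervals of Dlx2, Dlx5, Msx1, Msx2, Dlx4 and Msx3 lie below it, though Msx1 did not pass.

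The arrays labelled tail 1 and heart 2 can be placed gene by gene for the genes tested on 4 arrays. Tail 1 lay nearer to the mean of heart 1 and 3 than to that of tail 2 and 3 for 5 of the 6 genes, the exception being Dlx3. Tail 1 was left out for its likeness to heart 1 and 3 over all probes, so this count largely restates that choice. It is a description only, and the share over all features was not computed. For Dlx2 it was 0.61 from the heart mean and -5.34 from the tail mean, and for Msx2 it was 0.18 from the heart mean and -1.14 from the tail mean. For Dlx5 neither tail 1 nor heart 1 and 3 were well above background, and tail 1 was -4.65 from the tail mean. Heart 2 had a usable spot for 5 of these genes and lay nearer to the tail mean for Dlx2 and Msx1, and nearer to the heart mean for Dlx3, Msx2 and Alx4. For Dlx3, Msx1 and Alx4, which did not pass the test, the group means lie close together and place an array weakly.

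Dlx4 and Msx3, also of these families, were well above background on most arrays. Dlx4, a neighbour of Dlx3 known from placenta, had -3.04, -1.32 and -2.36 in heart cultures 1, 2 and 3, against -2.44, -0.27 and -0.19 in tail cultures 1, 2 and 3. Msx3, known in mouse from the dorsal neural tube, had -4.42, -2.12 and -4.06 in heart cultures 1, 2 and 3, against -4.73, -1.08 and -1.20 in tail cultures 1, 2 and 3. Both showed the order seen for Dlx2, with tail 2 and 3 highest, heart 2 next and tail 1 among the low arrays. On 4 arrays Dlx4 was 5.52-fold lower in heart (log2 difference -2.47, SE 0.27, limma adjusted p = 0.00790). Msx3 was 8.57-fold lower (log2 difference -3.10, SE 0.19, limma adjusted p = 0.00181), with 1 of 2 heart arrays well above background. By label their differences were -1.27 and -1.19 (limma adjusted p = 0.725 for each).

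**Figure D4:**
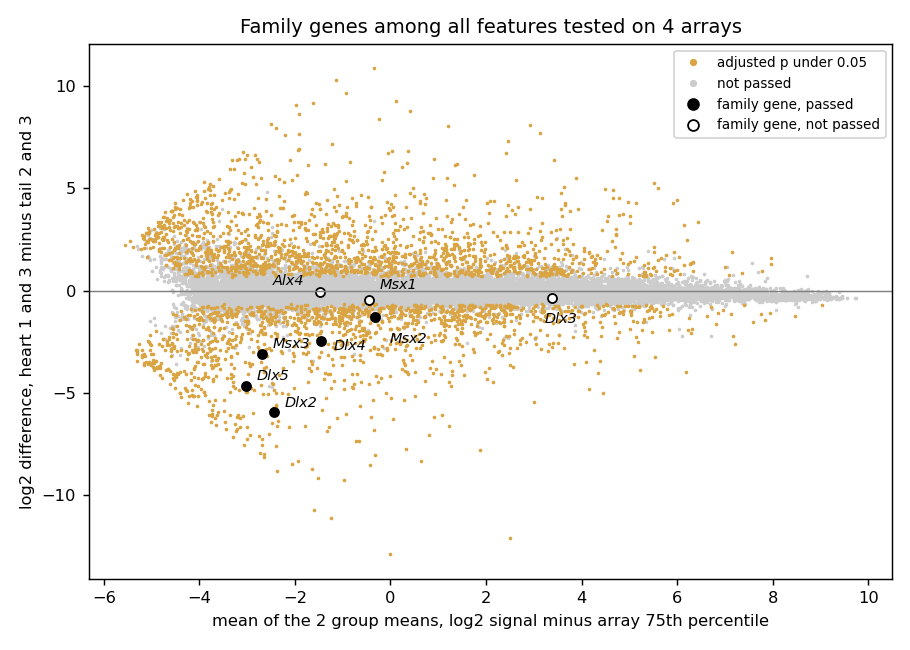
Log2 difference of heart 1 and 3 minus tail 2 and 3 against the mean of the group means for each of 20575 features, with those of the 9 genes, Dlx4 and Msx3 that were tested on 4 arrays drawn in black. Orange points and filled circles passed an adjusted p of 0.05. Dlx2 and Dlx5 lie among the larger negative differences of dim probes, and Dlx3, the brightest family gene drawn, lies inside the grey band near 0.

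The features whose centred levels lay closest to those of each called gene were found by root mean square distance in log2 units. For Dlx2, over 6 arrays and 13323 features, they were the BMP antagonist Chrdl1 (0.434), Plekhg4 (0.503) and the Hox antisense RNA Hoxa11os (0.511). For Dlx5, over the 5 arrays with a usable spot and 13668 features, they were the growth factor Pdgfc (0.110), the glycosyltransferase Galnt14 (0.122) and the retinoic acid binding protein Crabp1 (0.132). For Msx2, over 6 arrays and 13323 features, they were Tmem175 (0.0951), Arhgap12 (0.101) and Sult4a1 (0.102). The arrays are the same for every gene, so these distances describe shared array patterns and carry no test.

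Genes of the BMP pathway, which induces Msx and Dlx genes in many embryonic tissues, were followed as lists. By label 0 genes of any list were called, so the counts that follow are on 4 arrays, beside 14.3% called over all features and a median of -0.06. Medians by label are given after them, over the genes tested in that comparison, which were fewer for every list but the Id genes, and stand beside -0.35 over all features. Of 8 BMP ligand genes, 7 were tested, 2 were higher and 2 lower in heart, with a median of -0.90 (0.96 by label, the other sign). Gdf6, a joint and skull ligand, had 4.37 and 3.53 on arrays heart 1 and heart 3, against -4.14 and -4.76 on arrays tail 2 and tail 3 (log2 difference 8.40, limma adjusted p = 0.00112), with 1 of 2 tail arrays well above background. Bmp6 was also higher (log2 difference 2.83, limma adjusted p = 0.00136). Bmp5, a ligand of ear and rib skeleton, was at least 7.09-fold lower in heart (limma adjusted p = 0.00343), with a log2 difference of -1.64 under normexp. Bmp4, an inducer of Msx genes, had 4.38 and 4.17 on arrays heart 1 and heart 3, against 5.33 and 5.37 on arrays tail 2 and tail 3 (log2 difference -1.07, limma adjusted p = 0.0173). That call was lost without tail 2 or tail 3, where the highest adjusted p was 0.177. By label the differences of Gdf6 (3.92) and Bmp4 (-1.20) kept their sign and were not called.

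All 10 receptor and Smad genes were tested, and 0 were higher and 4 lower in heart, with a median of -0.25 (-0.74 by label). The receptor genes Bmpr1b, at least 6.86-fold lower (limma adjusted p = 0.00468), Acvr2a (log2 difference -2.64, limma adjusted p = 0.00234) and Acvr2b (log2 difference -1.23, limma adjusted p = 0.00927) were among them. The signal transducer Smad9 was the other (log2 difference -1.58, limma adjusted p = 0.00802). Under normexp Bmpr1b had a log2 difference of -1.29. Calls of Acvr2b and Smad9 were lost when tail 3 was left out, and that of Acvr2b also without tail 2, with adjusted p up to 0.116 and 0.0736. The remaining 6, Bmpr1a, Bmpr2, Acvr1, Smad1, Smad4 and Smad5, did not pass.

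Of 9 antagonist and feedback genes followed here, 8 were tested, 1 was higher and 2 were lower in heart, with a median of -0.58 (-0.24 by label). The secreted antagonist Grem1 had -7.45 and -6.33 on arrays heart 1 and heart 3, against 0.00585 and 0.56 on arrays tail 2 and tail 3, and was at least 32.2-fold lower in heart (limma adjusted p = 0.00189). On the arrays left out Grem1 had -2.01 on heart 2, against -7.37 on tail 1. Under normexp its log2 difference on 4 arrays was -3.74. Chrdl1, also an antagonist, had a log2 difference of -6.67 (limma adjusted p = 0.00293), with 1 of 2 heart arrays well above background and a difference of -3.97 under normexp. Bmper, a modulator of BMP signalling in vessels, was higher (log2 difference 2.24, limma adjusted p = 0.00371).

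The 4 Id genes, direct BMP targets that block basic helix-loop-helix factors, did not move one way, with a median of 0.71 (-0.20 by label, the other sign). Id2 (log2 difference 1.61, limma adjusted p = 0.00682) and Id3 (1.28, limma adjusted p = 0.00818) were higher in heart and Id4 was lower (-1.73, limma adjusted p = 0.0132). Each of these 3 calls was lost without tail 2 or without tail 3, with adjusted p up to 0.0667, 0.103 and 0.0771. By label the Id3 difference had the other sign, -0.16, and was not called.

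Of 27 regulators of face and limb mesenchyme, 19 were tested, 5 were higher and 10 lower in heart, with a median of -1.13 (-0.95 by label). Hand2, a heart, limb and lower jaw factor, was at least 59.4-fold higher (limma adjusted p = 0.000627). Its levels were 1.62 and 1.48 on arrays heart 1 and heart 3, against -5.18 and -5.55 on arrays tail 2 and tail 3. Gbx2, a homeobox gene of arch and hindbrain, was at least 15.5-fold higher (limma adjusted p = 0.00120). Pax9, needed for palate, teeth and vertebral discs, was at least 21.1-fold lower (limma adjusted p = 0.000627), and Tbx15, a factor of limb, skull and dorsal skin, was 28.6-fold lower (limma adjusted p = 0.000860). By label the differences of Hand2 (3.45) and Tbx15 (-1.92) kept their sign and were not called. Under normexp the log2 differences on 4 arrays were 4.47 for Hand2, 2.69 for Gbx2, -2.89 for Pax9 and -3.78 for Tbx15. All 4 calls remained when any 1 of the 4 arrays was left out.

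Of 8 osteoblast genes on the array, 5 were tested, 0 were higher and 3 lower in heart, with a median of -1.41 (-0.82 by label). Ibsp, a bone matrix protein, was at least 5.15-fold lower (limma adjusted p = 0.00197) and Spp1, or osteopontin, had a log2 difference of -2.38 (limma adjusted p = 0.00257). Under normexp the log2 differences of Ibsp and Spp1 were -1.31 and -2.33. Runx2, the master regulator of osteoblasts, had -3.48 and -3.91 on arrays heart 1 and heart 3, against -2.76 and -2.65 on arrays tail 2 and tail 3 (log2 difference -0.99, limma adjusted p = 0.0436). That call was lost without heart 3, tail 2 or tail 3, with adjusted p up to 0.279, and under normexp (log2 difference -0.41, limma adjusted p = 0.226). By label Runx2 had the other sign, 0.19, and was not called. Sp7, Phex and Dmp1, markers of mature bone cells, were not well above background on any of the 4 arrays.

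**Figure D5:**
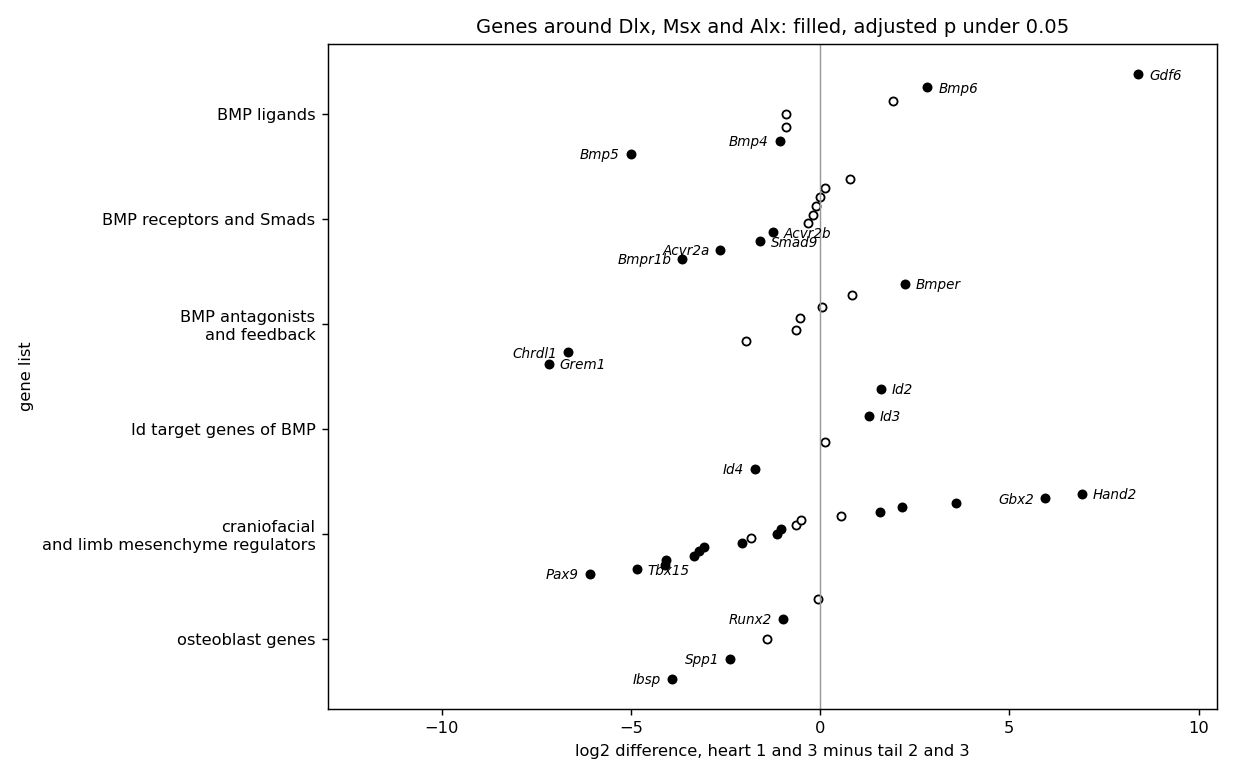
Log2 difference of heart 1 and 3 minus tail 2 and 3 for the tested genes of 6 lists, with 1 row of points per list. Filled circles passed an adjusted p of 0.05, and the called genes with the largest differences in each list are named. The antagonists Grem1 and Chrdl1 lie far to the left and Gdf6 and Hand2 far to the right, and where an array of the dimmer tissue was not well above background, as for these 4 genes, the plotted size is not exact.

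Marker lists of other cell types are given as summed linear signal over each array's 75th percentile. Chondrocyte genes summed to 11.1, 13.0 and 13.2 in heart cultures 1, 2 and 3, against 14.0, 92.2 and 105 in tail cultures 1, 2 and 3. Skeletal muscle genes summed to 13.8, 11.7 and 11 in heart cultures 1, 2 and 3, against 9.68, 39.4 and 34.5 in tail cultures 1, 2 and 3. Both sums were highest on tail 2 and 3, the arrays highest for Dlx2, Dlx5 and Msx2, and each was carried there by 1 gene. Comp gave 88.4 and 102 of the chondrocyte sum on tail 2 and 3, and the muscle actin Acta1 gave 38.8 and 33.1 of the muscle sum. Without Acta1 the muscle sum was 0.168 and 0.195 in heart cultures 1 and 3, against 0.582 and 1.42 in tail cultures 2 and 3, and the part of muscle genes in those results was not tested. Osteoblast genes (5.76, 4.61 and 7.03 on heart, against 6.52, 15.4 and 13.5 on tail) and Schwann cell and melanocyte genes (2.25, 5.18 and 2.68 on heart, against 2.91, 6.09 and 6.73 on tail) were also highest on tail 2 and 3. Without Spp1 the osteoblast sum was 4.16 and 5.09 in heart cultures 1 and 3, against 6.09 and 4.42 in tail cultures 2 and 3. It no longer followed that order, and on these 4 arrays it was mostly Alpl, which was not called (log2 difference -0.05). The other tested osteoblast genes, Runx2 (-0.99), Bglap2 (-1.41) and Ibsp (-3.92), were lower in heart on 4 arrays, though Bglap2 did not pass the test.

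The chondrocyte sum held 8 genes, of which 5 were tested on 4 arrays, 1 higher and 2 lower in heart, with a median of -0.31. Comp (log2 difference -4.83) and Col2a1 (-3.13) were lower, Sox9, the chondrocyte master factor, was higher (3.63), and Hapln1 was not well above background on any of the 4 arrays. Of 7 skeletal muscle genes 4 were tested and 3 were lower in heart. Myh3 was at least 15.9-fold and Myog at least 2.89-fold lower, while the Acta1 call (log2 difference -1.56) was lost without tail 2 (limma adjusted p = 0.0906) or tail 3 (0.0592). Under normexp the log2 differences of Myh3 and Myog were -2.83 and -0.97. Pax7 and Myf5 were not well above background on any array but heart 2. Of 10 Schwann cell and melanocyte genes 5 were tested, with 1 higher (Pmel) and 2 lower (Mitf and S100b). The Pmel and Mitf calls were lost without tail 2 or tail 3, and that of Pmel also without heart 3, with adjusted p up to 0.253 and 0.117. Tyrp1 was not well above background on any array.

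Keratinocyte and hair follicle genes, of interest because Dlx3 and Msx2 act in hair follicles, summed to 6.83, 8.30 and 7.12 in heart cultures 1, 2 and 3, against 6.39, 6.65 and 5.93 in tail cultures 1, 2 and 3. All heart sums lay above all tail sums, while the levels of Dlx3 and Msx2 overlapped between the labelled groups. Trp63, which was not called on 4 arrays, gave most of each sum except on heart 2. There it gave 1.85 and the other genes 6.45. Krt1, Krt17, Dsg3 and Dsc3 were not well above background on any array but heart 2. Of 13 genes 6 were tested on 4 arrays, with 1 higher in heart (Perp, log2 difference 1.07, with 1 of 2 tail arrays well above background) and 0 lower. The Perp call was lost without any 1 of the 4 arrays (limma adjusted p = 0.0624 to 0.288) and under normexp (log2 difference 0.45, limma adjusted p = 0.106). Of the fibroblast markers 3 were higher in heart (Lum, 2.95, Pdgfra, 1.68, and Dcn, 1.60) and 1 was lower (Thy1, -1.88). The Pdgfra and Dcn calls were lost without tail 2 or tail 3, with adjusted p up to 0.0582 and 0.0888, and by label both had the other sign (-0.21 and -0.37), as did Lum (-0.00108). Of 6 endothelial genes, all tested, 4 were higher in heart and 0 lower, and of 5 leukocyte genes on the array, all tested, 3 were higher and 0 lower. Among these, the Tek call was lost without tail 2 or tail 3 (adjusted p up to 0.234), that of Cdh5 without tail 2 (0.0554) and that of Cd52 without tail 3 (0.0579). Of 7 cardiomyocyte genes 5 were tested, with 1 higher (Tnnt2, 4.26) and 1 lower (Actc1, at least 29.8-fold). Under normexp the log2 differences of Tnnt2 and Actc1 were 3.35 and -3.07.

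Endothelial genes summed to 13.6, 6.08 and 18.1 in heart cultures 1, 2 and 3, against 14.9, 21.8 and 16.3 in tail cultures 1, 2 and 3, and Cldn5 and Tie1 were not well above background on tail 2 and 3. Leukocyte genes summed to 41.9, 18.2 and 83.3 in heart cultures 1, 2 and 3, against 65.5, 61.1 and 46.1 in tail cultures 1, 2 and 3. Cardiomyocyte genes summed to 3.84, 5.53 and 2.33 in heart cultures 1, 2 and 3, against 4.45, 1.40 and 2.17 in tail cultures 1, 2 and 3, and Ryr2 was well above background on heart 2 alone. These 3 sums did not follow the order of arrays seen for Dlx2, Dlx5 and Msx2, with tail 2 and 3 highest. Without Tnnt2, the cardiomyocyte sum was 0.263, 5.25 and 0.362 on heart, against 0.322, 1.31 and 1.97 on tail. It was then highest on heart 2, with tail 2 and 3 next. Without Kdr, the endothelial sum was 2.12, 2.33 and 2.42 on heart, against 2.18, 0.788 and 0.829 on tail, lowest on tail 2 and 3. Without Csf1r, the leukocyte sum was 22.4, 12.7 and 46.5 on heart, against 38.1, 31.5 and 27.4 on tail. The part of these genes was not tested.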

How the data were processed

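RNA of 3 heart and 3 tail fibroblast cultures was read on 1-colour Agilent arrays. All 6 lay on 1 slide with 1 scan time. Per the file headers, the deposited intensity values were made with Agilent Feature Extraction 11.0.1.1, also named in the submitters' processing notes, which subtracted background and detrended each array on an mm9 design without scaling between arrays. The deposited flag columns mark spots as well above background, saturated, non-uniform or population outliers. The authors also deposited a table of log2 fold changes and linear fold ratios of heart over tail. How those were normalized is not stated in the labels or headers.

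Each of 59305 non-control spots was expressed as log2 of the processed signal minus the array's 75th percentile. Outlier spots were left out, spots of a probe were averaged (55681 probes), and 27235 probes were named through RefSeq accessions. A feature was tested if heart, tail or both had it well above background on every array, and each gene was read from its probe of highest mean. Heart was set against tail in limma 3.58.1 under R 4.3.3 with the functions lmFit and eBayes. The tests were two-sided, adjusted by Benjamini and Hochberg's method over all features with a threshold of 0.05, and tested on simulated data. Python 3.11.15, pandas 2.3.3 and matplotlib 3.10.9 made tables and plots. The number of arrays limits the precision, and p-values measure the spread between these cultures.

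The genes and lists were chosen with earlier results of these data known. Named genes are the 9 genes, from each list at most 4 called genes, by size of the 4-array difference, and the 3 features nearest in profile to each called gene. Called genes of marker lists and other family genes are named by the same list rule, and other names were picked with values known. Alternatives were quantile, median and cyclic loess scaling, normexp (offset 50, on median spot signals), no filter or one over every array, other probe choices, trend with robust estimation, array weights, slide row or replicate number as a block, treat against a 2-fold change, and leaving out each array. Some genes of these families and lists are not reported here.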

Additional observations from a re-analysis of the deposited data

How the results depend on the processing

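By label the count of called features was 0, but 5617 with array weights, 121 with the replicate block and 239 without heart 1 (0 to 239 over arrays left out). Deviations of same-numbered arrays from their group means correlated at 0.20, 0.26 and -0.33. Those of unlike-numbered arrays spread as widely, from -0.29 to 0.34, so this cannot tell whether replicate numbers pair the cultures. None of the 9 genes was called with the block. Array weights gave heart 2 a weight of 0.0270 and tail 3 one of 11.3, and the weight estimate stopped before it converged. With them Dlx2 (-6.60, limma adjusted p = 0.00361) and Msx2 (-1.07, limma adjusted p = 0.00635) were called, as were Dlx4 (-2.18) and Msx3 (-2.84), and Alx4 reversed to 0.0511 without a call. The untested Alx1 difference by label was -0.50 with median scaling and -0.75 with cyclic loess. On 4 arrays the count of 2943 was 706 without a filter, 1056 against a 2-fold change, and 1495 to 4065 with an array left out, where the lone array of a group is assumed to vary like the others (1818 without tail 2 and 1495 without tail 3). Dlx2 was not called without the filter (-5.95, limma adjusted p = 0.0811), nor was Dlx4 (limma adjusted p = 0.0736), nor Msx2 (-1.32, adjusted p = 0.168; treat adjusted p = 1.00). With an array left out, Dlx2 ranged over -7.04 to -4.86, Dlx5 over -4.93 to -4.38, Msx2 over -1.56 to -1.08 (called in 2 of 4 fits), and Alx4 over -0.20 to 0.0614, reversed without heart 1. By label, leaving out an array gave Dlx2 -4.36 to -1.24, Msx2 -1.13 to -0.52, Msx1 -0.39 to -0.08, Dlx3 -1.38 to -0.34 and Alx4 -0.79 to -0.05, none called, and without tail 1 Dlx5 was tested at -4.65 (limma adjusted p = 0.111). The untested ranges were 0.26 to 2.03 for Dlx1, -0.08 to 3.67 for Dlx6 and -0.10 to 1.095 for Alx1. With the slide row as a block on 4 arrays, Dlx2, Dlx5 and Msx2 remained called. Scaling moved the median of all features by label, -0.35 by the 75th percentile, to -1.35 by the median and -0.02 by loess. Over the 11 differences of these genes that were tested, 175 of 184 alternatives kept the direction and side of the threshold. Over the 7 that were not, 57 of 71 kept the sign and 14 did not. Many alternatives could not move a difference. With 1 probe per gene the other probe choices used the same values, and the filter, trend and treat settings changed the test alone. The counts also hold genes not called that stayed so, and they are descriptions only. The cause of these changes was not tested. Signals not well above background limit Dlx1, Dlx6 and Alx1, and Dlx5 in heart.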

Other observations

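The probes of 4 family genes or transcripts, Dlx1, Dlx6, Alx1 and Dlx1as, were well above background on the array labelled heart 2 and on no other array. The largest gap was that of Dlx6, at 1.61 on heart 2 and between -5.89 and -5.11 on the other 5 arrays. On the same array the Dlx5 spot, at 0.01, was marked non-uniform, so of the Dlx6 and Dlx5 pair only Dlx6 has a usable value there. Since 99.3% of spots on this array were well above background, that call separates few probes on it.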
